A study of Mus musculus with 23 samples.

Results

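The 10 cardiac transcription factor genes Gata4, Gata6, Nkx2-5, Mef2a, Mef2c, Hand1, Hand2, Tbx5, Tbx20 and Srf were followed through 23 single mouse cells. They were taken as every probe set annotated to 1 of these symbols and to no other gene, which gave 29 of the 45037 probe sets tested and 10 of 18193 genes. Gata4 had 2 probe sets, Gata6 3, Nkx2-5 1, Mef2a 6, Mef2c 5, Hand1 2, Hand2 3, Tbx5 2, Tbx20 3 and Srf 2. In the heart these factors work as a network. The GATA zinc-finger proteins, the homeodomain protein Nkx2-5 and the T-box proteins bind DNA together at genes of the contractile apparatus, the MEF2 proteins and Srf are MADS-box factors of muscle genes, and the HAND proteins are basic helix-loop-helix factors that pattern the ventricles. Gata4, Mef2c and Tbx5 are also the classic set of genes that, when forced on together, push fibroblasts towards a cardiomyocyte-like state, so they are natural genes to read after a transfer of cardiomyocyte RNA.

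The study moved the poly-A RNA of one cell type into another and then picked single cells with a glass pipette for RNA amplification and hybridization to an Affymetrix mouse array, a procedure known as TIPeR (transcriptome induced phenotype remodelling). The fibroTIPeR group held 5 fibroblasts given cardiomyocyte RNA, and the fibroControl group held 3 fibroblasts given fibroblast RNA. The astroTIPeR group held 6 astrocytes given cardiomyocyte RNA, and the astroControl group held 2 astrocytes that were mock transfected. The remaining groups were 4 cardiomyocytes and 3 fibroblasts, neither transfected. All cells had been cultured in DMEM with serum, and RNA was delivered with a lipid reagent. Strain, age, and which culture or animal a cell came from are not given in the labels, so the spread within a group is a spread between cells, and p-values do not extend to cultures or animals. Whether a cell still held transferred RNA when it was picked is not given either, so a level is RNA of either origin.

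The deposited values were on a log2 scale and fell in 2 sets of arrays, with column medians of 5.05 to 5.58 in the 15 fibroblast and cardiomyocyte arrays and 4.28 to 4.56 in the 8 astrocyte arrays. All levels below are log2 values after quantile normalization over the 23 arrays, whose median was 5.05 and 90th percentile 9.41. Each set held its own cell types, so array set and cell type cannot be told apart wherever astrocytes are set against cardiomyocytes. The mean of 10 cardiomyocyte markers was 8.26 to 9.45 in the 4 cardiomyocytes and at most 6.52 in the other 19 cells. Not every marker followed, since Nppa averaged only 4.39 in cardiomyocytes, and Tnnt2 averaged 7.99 there against 8.46 in fibroblasts. For 10 fibroblast markers the mean was 7.50 to 9.47 in fibroblasts, 7.34 to 8.21 in fibroTIPeR cells and 7.50 to 9.69 in fibroControl cells. In cardiomyocytes it was 5.60 to 7.66, which overlapped with these groups, and Dcn averaged 10.17 there against 8.85 in fibroblasts. The mean of 10 astrocyte markers was 7.27 to 8.30 in astroTIPeR cells, 7.02 to 7.35 in astroControl cells and 7.84 to 8.45 in cardiomyocytes, and Gfap averaged 4.69, 5.32 and 6.13 in these groups, so the list did not set the labelled astrocytes apart. The mean of 8 macrophage and microglia markers was 6.72 to 8.25 in astroTIPeR cells, 6.19 to 7.42 in astroControl cells and at most 6.88 in the other 15 cells. Of these, Lyz2 averaged 9.89 in astroTIPeR, 7.99 in astroControl and at most 5.93 in the other groups, and Adgre1 8.09 in astroTIPeR, 5.59 in astroControl and 7.62 in fibroblast cells. The part of these markers in the astrocyte comparisons was not tested. The control probe set for 18S ribosomal RNA averaged 10.5 ± 2.59 in fibroTIPeR cells, 11.6 ± 0.43 in fibroControl cells, 8.73 ± 0.68 in astroTIPeR cells, 8.63 ± 0.65 in astroControl cells, 7.48 ± 0.59 in cardiomyocytes and 7.45 ± 0.53 in fibroblasts (SD). Within fibroTIPeR the 18S level read 12.38, 11.03, 13.48, 7.80 and 7.88 in cells 1 to 5. It did not overlap between fibroControl cells (11.23 to 12.08) and cardiomyocytes (6.94 to 8.24) or fibroblasts (7.05 to 8.06). In those comparisons 18S and group cannot be told apart, also where 18S is used as a covariate. The number of arrays limits the precision of every value.

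For each gene the probe set with the highest mean over all cells is described first. By this choice Mef2a (12.29), Hand1 (11.67), Gata6 (10.15), Nkx2-5 (9.52), Mef2c (8.92) and Tbx5 (8.15) lay in the upper part of the array's range as means over 23 cells, while Gata4 (6.62), Srf (6.26), Hand2 (5.97) and Tbx20 (4.79) lay nearer its median. Probe sets differ in how well they bind their target, so these levels place each probe set on the array and do not rank the genes. A high level in every group is also not by itself a sign of expression. The neuron marker Map2 averaged at least 12.97 in every group and the microglia marker Cx3cr1 at least 11.93, while the neuron marker Tubb3 averaged at most 3.91. Each level was set beside a chemoreceptor mark, the 95th percentile of 83 probe sets for olfactory, vomeronasal and taste receptors in the same cell. This mark ran from 7.21 to 10.09, above the median of 5.05 over all levels. Only 2 of 10 cardiomyocyte markers stood above it in all 4 cardiomyocytes, so a level below the mark is no sign of absence. Of the 29 probe sets, 2 stood above that mark in all 23 cells, the highest-mean ones of Mef2a and Hand1, against 4.77% of all probe sets, and 17 stood above it in no cell, against 64.6% of all probe sets. The probe sets of a gene seldom moved together. Over the 15 fibroblast and cardiomyocyte cells, the 38 pairs of probe sets within a gene had a median Pearson correlation of 0.03, and the 368 pairs between genes had a median of 0.02.

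**Figure D1:**
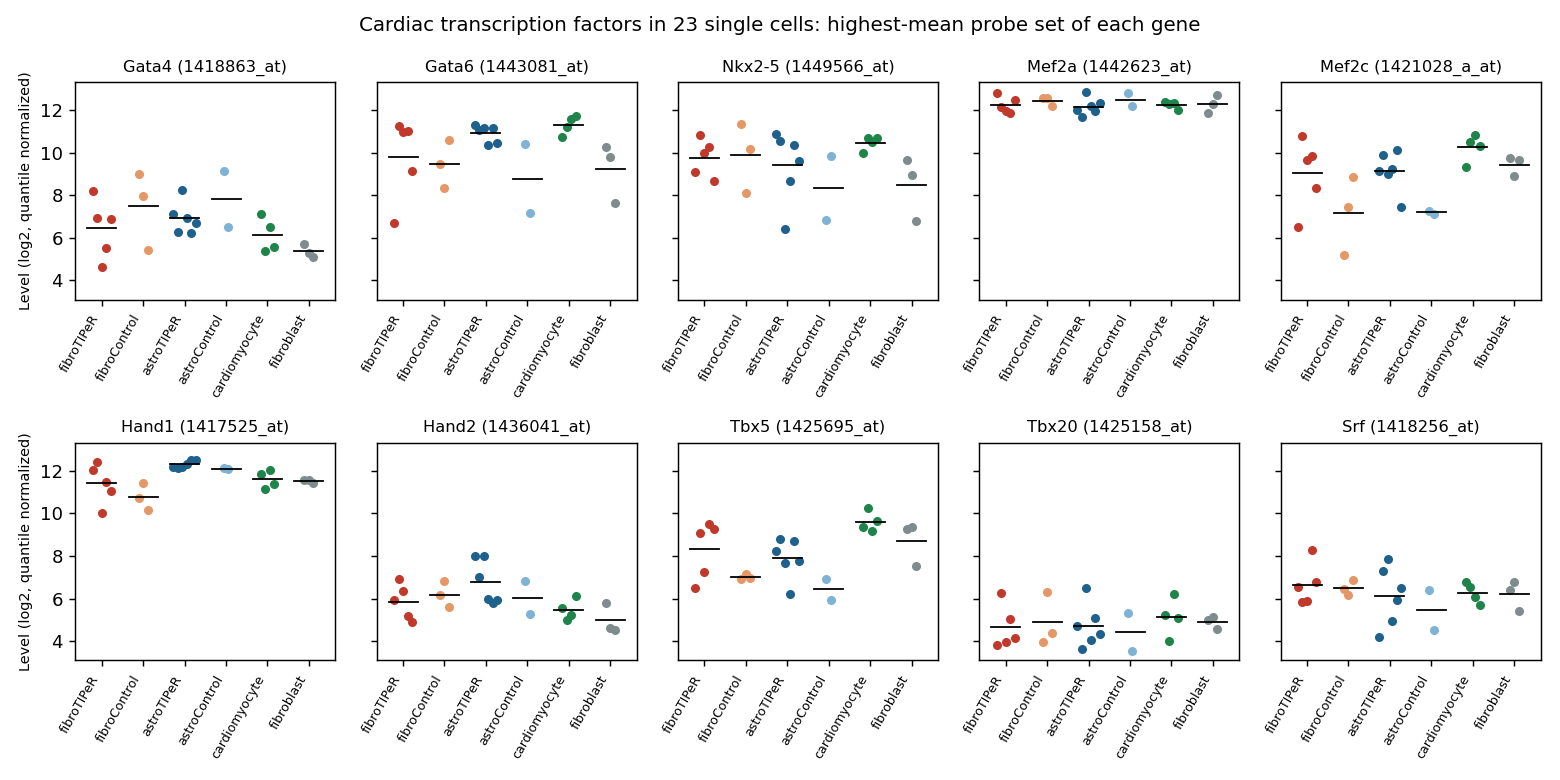
Level (log2, quantile normalized) of the highest-mean probe set of each of the 10 factors in every cell, with 1 point per cell and a black bar at the group mean. Gata6, Nkx2-5, Mef2c and Tbx5 had their highest group mean in cardiomyocytes, whereas Mef2a and Hand1 were high in every group and Tbx20 was low in every group.

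The GATA factors bind the core letters GATAA and lie near the top of the cardiac network. Gata6, through its highest-mean probe set, read 6.69, 11.26, 10.96, 11.02 and 9.14 in the 5 fibroTIPeR cells, against 9.48, 8.36 and 10.60 in the 3 fibroControl cells. The groups overlapped, since fibroTIPeR cells 2 to 4 lay above every fibroControl cell while fibroTIPeR 1 was the lowest of all 23 cells. In astrocytes Gata6 ran from 10.34 to 11.28 with a median of 11.12 over the 6 astroTIPeR cells, against 10.40 and 7.17 in the astroControl cells. Cardiomyocytes read 10.72, 11.21, 11.58 and 11.74, against 10.25, 9.79 and 7.65 in fibroblasts, so the lowest cardiomyocyte lay above the highest fibroblast. The group means were 9.81 ± 1.94 in fibroTIPeR, 9.48 ± 1.12 in fibroControl, 10.91 ± 0.41 in astroTIPeR, 8.78 ± 2.29 in astroControl, 11.31 ± 0.45 in cardiomyocyte and 9.23 ± 1.39 in fibroblast cells (SD, n = 5, 3, 6, 2, 4 and 3). In descending order they ran cardiomyocyte, astroTIPeR, fibroTIPeR, fibroControl, fibroblast and astroControl, and no neighbours in that order differed by more than the larger of their SDs.

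Cardiomyocytes exceeded fibroblasts at this Gata6 probe set by 2.08 ± 0.86 (SE), with an adjusted p of 0.458 in limma, so the difference did not pass the 0.05 threshold over all probe sets. It leaned on 1 low cell, since without fibroblast 3 it was 1.29 (limma adjusted p = 0.990). Given cardiomyocyte RNA, fibroblasts differed from fibroblasts given fibroblast RNA by 0.33 at Gata6 (95% interval −1.35 to 2.02, limma adjusted p = 0.974). Astrocytes given cardiomyocyte RNA exceeded mock-transfected astrocytes by 2.13 ± 0.92 (limma adjusted p = 0.424). That difference rested on a single control cell, since without astroControl 2 it was 0.51 and without astroControl 1 it was 3.75. The other Gata6 probe sets did not follow it. The second by mean differed by −2.32 in astroTIPeR minus astroControl (limma adjusted p = 0.492), and the third had a highest level of 6.12 in any cell.

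Gata4, the partner of Nkx2-5 and Tbx5 in heart development, did not stand out in cardiomyocytes at its higher-mean probe set. At the higher-mean one it averaged 6.44 ± 1.37 in fibroTIPeR, 7.47 ± 1.84 in fibroControl, 6.91 ± 0.74 in astroTIPeR, 7.80 ± 1.87 in astroControl, 6.14 ± 0.82 in cardiomyocyte and 5.36 ± 0.31 in fibroblast cells (SD). The 4 cardiomyocytes read 5.35 to 7.12 there, and each transfected group held a higher cell. The second probe set had its highest group mean in cardiomyocytes (6.18), followed by fibroblast cells (5.98). It read lower in astroTIPeR cells (2.94 to 5.12, median 4.21) than in cardiomyocytes (5.93, 4.53, 7.09 and 7.18), a difference of −2.19 ± 0.66 with a limma adjusted p of 0.0852. With values as deposited this difference was −3.33 (limma adjusted p = 0.00138). The pair of Gata4 probe sets ran against each other across the 15 fibroblast and cardiomyocyte cells (r = −0.45). Neither probe set stood above the chemoreceptor mark in any cardiomyocyte.

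Nkx2-5, the homeodomain factor that marks heart precursors and stays on in heart muscle, is measured here by a single probe set. It read 9.08, 10.81, 10.00, 10.27 and 8.66 in fibroTIPeR cells, against 11.35, 8.12 and 10.18 in fibroControl cells. The highest Nkx2-5 level of all 23 cells was therefore in fibroControl 1, a fibroblast that had received fibroblast RNA. AstroTIPeR cells ran from 6.40 to 10.86 with a median of 9.99, against 6.82 and 9.85 in astroControl cells, and both groups spread widely. Cardiomyocytes read 9.99, 10.70, 10.49 and 10.69, against 9.64, 8.97 and 6.78 in fibroblasts, with no overlap. The group means were 9.77 ± 0.88 in fibroTIPeR, 9.88 ± 1.64 in fibroControl, 9.41 ± 1.67 in astroTIPeR, 8.33 ± 2.14 in astroControl, 10.47 ± 0.33 in cardiomyocyte and 8.47 ± 1.5 in fibroblast cells (SD). No neighbours in the descending order cardiomyocyte, fibroControl, fibroTIPeR, astroTIPeR, fibroblast, astroControl differed by more than the larger of their SDs.

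The cardiomyocyte excess over fibroblasts at Nkx2-5 was 2.0 ± 0.94 (SE), with a limma adjusted p of 0.525. Without fibroblast 3, the low cell for Gata6 too, it was 1.16 (limma adjusted p = 0.992). FibroTIPeR differed from fibroControl by −0.12 (95% interval −1.96 to 1.73, limma adjusted p = 0.992), an interval that leaves room for a difference of either sign. In astrocytes the difference from mock transfection was 1.08 (95% interval −0.98 to 3.14, limma adjusted p = 0.811).

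Mef2c, the MADS-box factor needed for heart looping, was the sole member with an unadjusted p under 0.05 between fibroblasts given cardiomyocyte RNA and fibroblasts given fibroblast RNA (0.0359 in limma), and it missed the adjusted threshold. At its highest-mean probe set it read 6.49, 10.77, 9.66, 9.86 and 8.36 in fibroTIPeR cells, against 5.20, 7.43 and 8.85 in fibroControl cells. Of the fibroTIPeR cells 3 lay above every fibroControl cell and none lay below fibroControl 1. In astrocytes Mef2c ran from 7.46 to 10.14 with a median of 9.17 in astroTIPeR cells, against 7.27 and 7.12 in astroControl cells, with no overlap. Cardiomyocytes read 9.34, 10.51, 10.83 and 10.32, against 9.76, 8.89 and 9.68 in fibroblasts, so untransfected fibroblasts lay 0.81 below cardiomyocytes on average, with overlap (limma adjusted p = 0.818). The group means were 9.03 ± 1.66 in fibroTIPeR, 7.16 ± 1.84 in fibroControl, 9.14 ± 0.94 in astroTIPeR, 7.20 ± 0.11 in astroControl, 10.25 ± 0.64 in cardiomyocyte and 9.44 ± 0.48 in fibroblast cells (SD). In descending order they ran cardiomyocyte, fibroblast, astroTIPeR, fibroTIPeR, astroControl and fibroControl, and the steps from cardiomyocyte to fibroblast and from fibroTIPeR to astroControl exceeded the larger SD of the groups they join.

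FibroTIPeR exceeded fibroControl at this Mef2c probe set by 1.87 ± 0.85 (95% interval 0.13 to 3.60), with a limma adjusted p of 0.741. Without fibroControl 1, its lowest cell, the difference was 0.89. AstroTIPeR exceeded astroControl by 1.94 ± 0.95 (limma adjusted p = 0.509). FibroControl lay below fibroblast by −2.28 ± 0.95 (limma adjusted p = 0.213), with no overlap, and by −1.30 without fibroControl 1 (limma adjusted p = 0.595), while fibroTIPeR differed from fibroblast by −0.41. At this probe set fibroControl and astroControl had the lowest group means. The comparisons with fibroControl share its 3 cells, in which mean 18S was also highest. With the 18S level as a covariate the fibroTIPeR minus fibroControl difference was 1.70 and the fibroControl minus fibroblast difference was −1.65. For the latter, 18S and group cannot be told apart.

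A window picked for its matches is no sign of a link between factors. The sequence before a start of Mef2c is shown because, of the Mef2c windows, only this held GATAA. That of Srf is shown because Srf is known to bind CArG boxes. Both are RefSeq promoters of build GRCm38.p6, written 5′ to 3′ on the gene's strand from 250 bases before the annotated start to 50 after it. Capitals mark GATAA on either strand, CArG boxes and MEF2 boxes, none of which overlapped here.
Mef2c, the second of 3 starts, chr13:83523406-83523705, plus strand: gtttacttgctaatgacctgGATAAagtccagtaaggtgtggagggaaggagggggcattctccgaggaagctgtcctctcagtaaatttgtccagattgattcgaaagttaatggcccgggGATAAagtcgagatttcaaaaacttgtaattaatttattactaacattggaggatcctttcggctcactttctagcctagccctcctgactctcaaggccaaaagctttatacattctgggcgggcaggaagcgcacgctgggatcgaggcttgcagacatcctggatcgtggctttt
Srf, chr17:46556113-46556412, minus strand: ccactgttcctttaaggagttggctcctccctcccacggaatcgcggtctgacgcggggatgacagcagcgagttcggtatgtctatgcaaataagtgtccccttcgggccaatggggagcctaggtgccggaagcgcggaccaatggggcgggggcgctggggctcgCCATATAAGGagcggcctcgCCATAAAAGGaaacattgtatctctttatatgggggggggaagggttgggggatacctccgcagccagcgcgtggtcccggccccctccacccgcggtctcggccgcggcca
The Mef2c window held 2 GATAA matches and the Srf window 2 CArG boxes. Among 32851 RefSeq promoters of 300 bases, 25.4% held GATAA, 1.63% a CArG box and 3.19% a MEF2 box. Promoters of 6 of the 10 members were read, 8 windows in all, and the other windows of Mef2c and that of Nkx2-5 held none of these 3 motifs. The Hand2 window held 2 GATAA matches and the Mef2a window 1 MEF2 box. A match describes the letters and is not a bound site.

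The other Mef2c probe sets did not repeat the pattern of the highest-mean one. At the second by mean, fibroControl 1 read 10.56, while the other 22 cells lay at 8.18 or below. There astroTIPeR cells ran from 2.93 to 5.65 with a median of 3.94, against 6.13 and 8.18 in astroControl cells, a difference of −3.15 ± 1.15 (limma adjusted p = 0.307) that ran opposite to the highest-mean probe set. Mef2a, the ubiquitous relative of Mef2c, varied little on this scale. Its highest-mean probe set ranged over only 1.15 log2 units across all 23 cells, with means of 12.26 in fibroTIPeR, 12.45 in fibroControl, 12.17 in astroTIPeR, 12.50 in astroControl, 12.25 in cardiomyocyte and 12.31 in fibroblast cells. With median centring it was higher than in cardiomyocytes by 1.31 in astroTIPeR cells (limma adjusted p = 0.000296) and by 1.51 in astroControl cells (limma adjusted p = 0.00307). The other 5 Mef2a probe sets averaged 3.06 to 5.68 over all cells. Of these, the fourth by mean read 7.96, 4.66 and 3.35 in fibroControl, against 2.66, 1.93 and 2.83 in fibroblast cells, a difference of 2.85 ± 1.09 (limma adjusted p = 0.172). It was 1.53 without fibroControl 1 and −0.06 with the 18S level as a covariate, which cannot be told apart from group there.

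**Figure D2:**
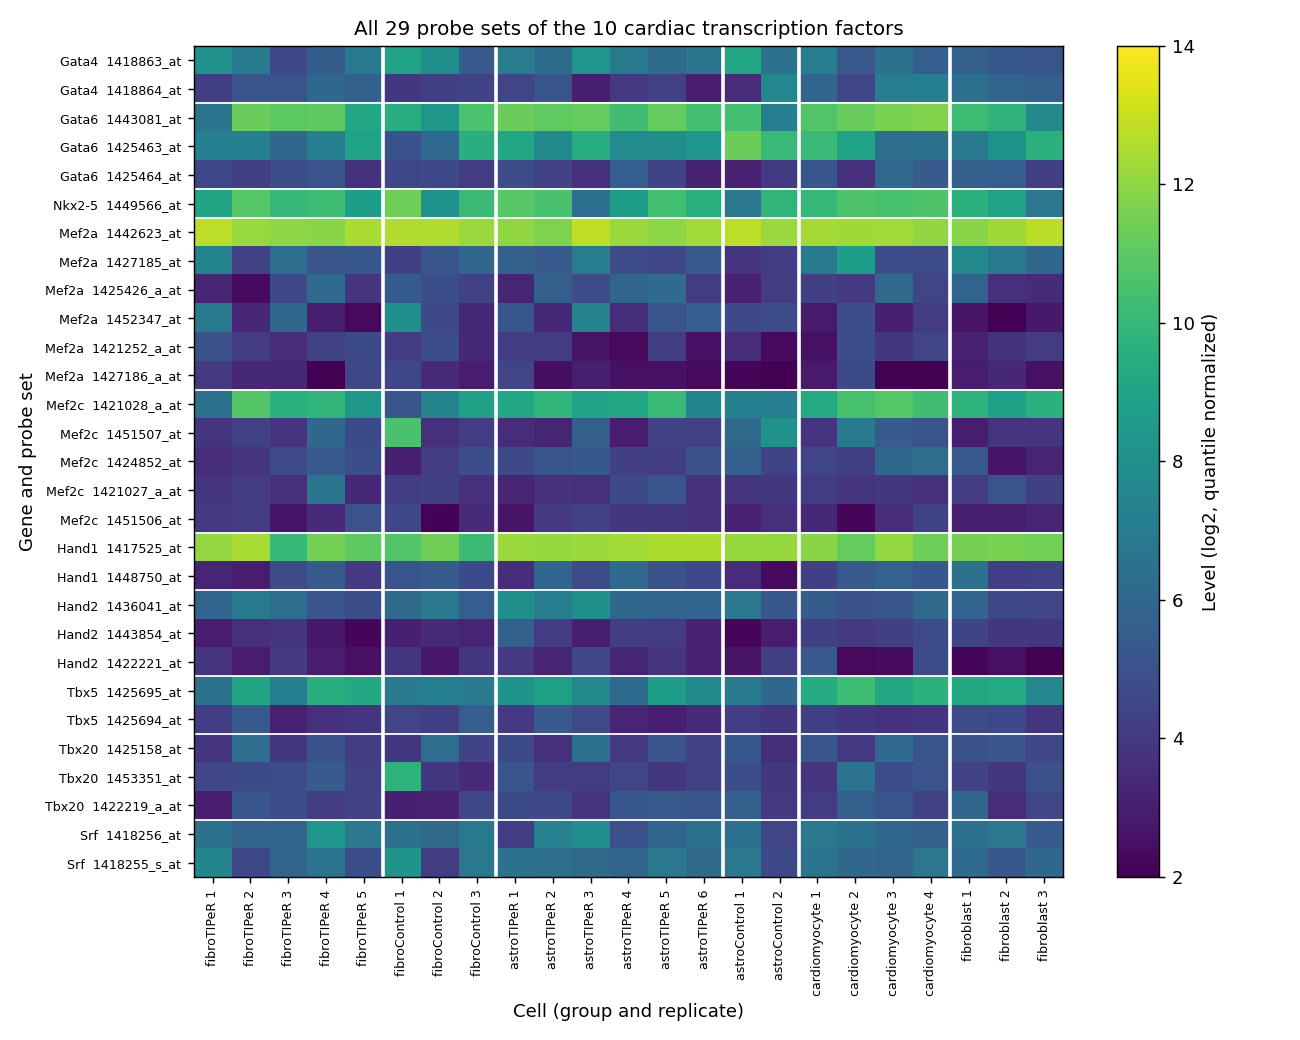
Level (log2, colour scale) of all 29 probe sets in all 23 cells, with white lines between genes and between groups. Within a gene the top probe set, ordered by mean, was often far above the others, as for Mef2a and Hand1, and isolated high cells appear in other probe sets, such as fibroControl 1 at the second probe sets of Mef2c (10.56) and Tbx20 (9.74).

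Tbx5, a T-box factor of the atria and left ventricle that acts with Nkx2-5 and Gata4, followed an order like that of Mef2c. At its highest-mean probe set it read 6.49, 9.06, 7.25, 9.51 and 9.25 in fibroTIPeR cells, against 6.91, 7.17 and 6.95 in fibroControl cells. Thus 4 of the 5 fibroTIPeR cells lay above every fibroControl cell and fibroTIPeR 1 lay below them all. AstroTIPeR cells ran from 6.20 to 8.82 with a median of 7.99, against 6.92 and 5.95 in astroControl cells. Cardiomyocytes read 9.37, 10.25, 9.18 and 9.64, against 9.27, 9.34 and 7.53 in fibroblasts, which overlapped. The group means were 8.31 ± 1.35 in fibroTIPeR, 7.01 ± 0.14 in fibroControl, 7.90 ± 0.96 in astroTIPeR, 6.44 ± 0.69 in astroControl, 9.61 ± 0.47 in cardiomyocyte and 8.72 ± 1.03 in fibroblast cells (SD). In descending order they ran cardiomyocyte, fibroblast, fibroTIPeR, astroTIPeR, fibroControl and astroControl, with no neighbours further apart than the larger of their SDs.

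FibroTIPeR differed from fibroControl at Tbx5 by 1.30 (95% interval −0.31 to 2.91, limma adjusted p = 0.846), and astroTIPeR from astroControl by 1.47 (−0.33 to 3.26, limma adjusted p = 0.631). FibroControl lay below cardiomyocyte by −2.60 ± 0.82, with no overlap and a limma adjusted p of 0.0850. With the 18S level as a covariate this was −0.71, but 18S and group cannot be told apart there. AstroTIPeR lay below cardiomyocyte by −1.71 ± 0.69 (limma adjusted p = 0.213), again with no overlap. This call depended on the scaling: the difference was −2.09 with values as deposited (limma adjusted p = 0.0327), −2.07 with quantile normalization within each array set (0.0311) and −0.96 with median centring (0.441). The other Tbx5 probe set lay between 3.02 and 5.57 in all cells. Tbx20, a T-box factor of the myocardium and valves, averaged near the array's median on all 3 probe sets, although fibroControl 1 read 9.74 at the second. At the highest-mean one it averaged 4.65 in fibroTIPeR, 4.89 in fibroControl, 4.71 in astroTIPeR, 4.44 in astroControl, 5.13 in cardiomyocyte and 4.89 in fibroblast cells, and it stood above the chemoreceptor mark in no cell.

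Hand1 and Hand2 are known for the left and right ventricle, and they read very differently here. Hand1 at its highest-mean probe set read high in every cell, from 10.05 to 12.51, while its other probe set averaged 4.67 over all cells. The highest-mean probe set averaged 11.41 ± 0.93 in fibroTIPeR, 10.77 ± 0.63 in fibroControl, 12.30 ± 0.17 in astroTIPeR, 12.11 ± 0.02 in astroControl, 11.61 ± 0.41 in cardiomyocyte and 11.52 ± 0.07 in fibroblast cells (SD). All 6 astroTIPeR cells lay above all 4 cardiomyocytes, by 0.69 on average (limma adjusted p = 0.288), and by 0.92 with values as deposited and 2.05 with median centring, where the adjusted p in limma was 0.0314 and 1.99e-05. The other Hand1 probe set read 3.54, 5.90, 4.78, 6.20, 4.98 and 4.67 in astroTIPeR cells, against 3.51 and 2.33 in astroControl cells. That difference of 2.09 ± 0.74 (limma adjusted p = 0.284) had the smallest unadjusted p of any member in that comparison, 0.00862. In fibroblasts the same probe set ran the other way, with a mean of 4.08 in fibroTIPeR and 5.07 in fibroControl cells, and the effect in fibroblasts minus that in astrocytes was −3.08 ± 0.99 (limma adjusted p = 0.423).

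Hand2 at its highest-mean probe set averaged 5.85 in fibroTIPeR, 6.18 in fibroControl, 6.79 in astroTIPeR, 6.04 in astroControl, 5.47 in cardiomyocyte and 4.98 in fibroblast cells. Cardiomyocytes had no Hand2 signal above the chemoreceptor mark on any of its 3 probe sets. At the second by mean the 5 fibroTIPeR cells read 2.15 to 3.87, all below the 4 cardiomyocytes at 4.0 to 4.78, a difference of −1.25 ± 0.48 (limma adjusted p = 0.267). Srf, which links growth factor and actin signals to muscle and cytoskeletal genes in many cell types, showed little difference between groups. At its highest-mean probe set it averaged 6.65 ± 0.99 in fibroTIPeR, 6.49 ± 0.36 in fibroControl, 6.12 ± 1.41 in astroTIPeR, 5.45 ± 1.32 in astroControl, 6.26 ± 0.48 in cardiomyocyte and 6.21 ± 0.70 in fibroblast cells (SD). The cardiomyocyte minus fibroblast difference in Srf was 0.05 (95% interval −1.69 to 1.78).

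**Figure D3:**
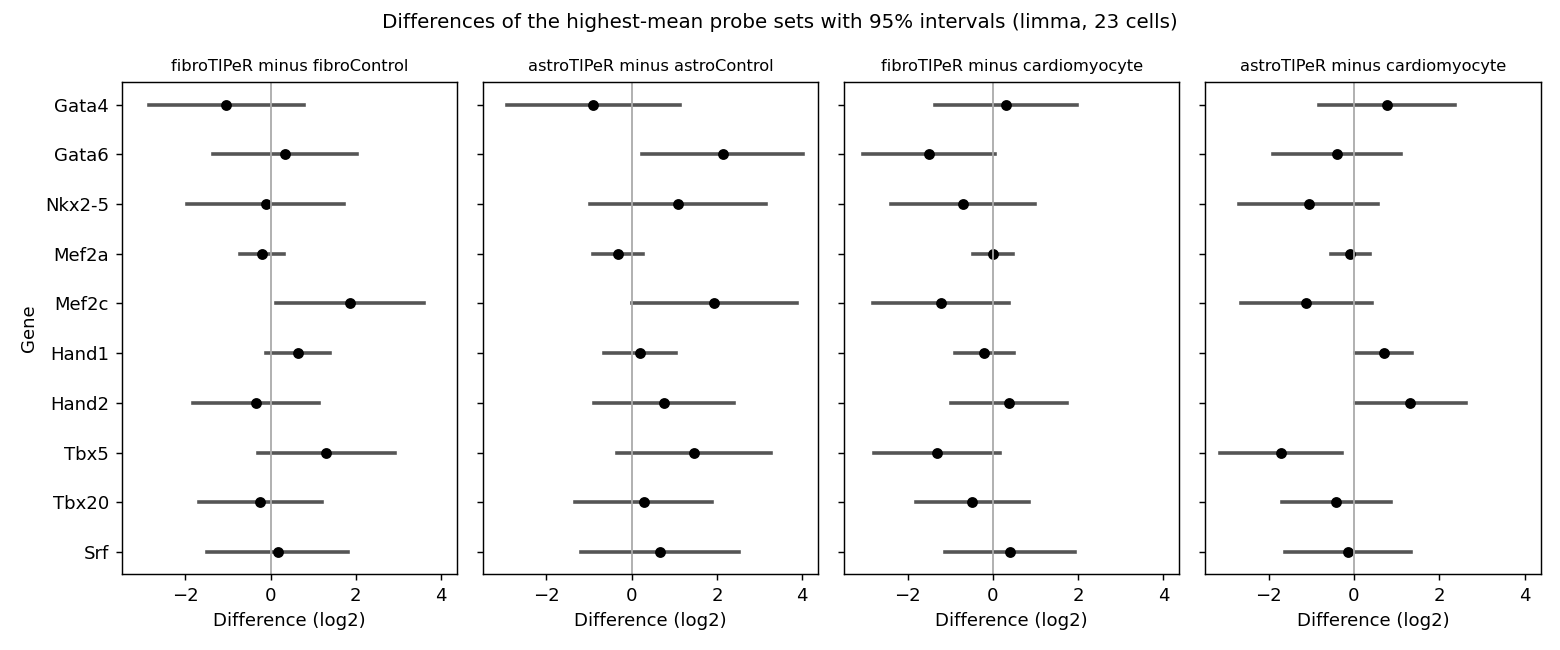
Differences in level (log2) of the highest-mean probe set of each gene in 4 comparisons, with points for limma estimates and lines for 95% intervals. Intervals that left out 0 were those of Mef2c in fibroTIPeR (1.87) and of Mef2c (1.94) and Gata6 (2.13) in astroTIPeR cells against their controls, and of Tbx5 (−1.71), Hand1 (0.69) and Hand2 (1.32) in astroTIPeR cells against cardiomyocytes, and no adjusted p passed 0.05.

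No probe set of the 10 factors passed an adjusted p of 0.05 in limma in any of the 9 comparisons of groups, or when the effect of transfer in fibroblasts was set against that in astrocytes. The background shares of all 45037 probe sets that passed were small too. They were 0.127% for cardiomyocyte minus fibroblast, 0.00222% for fibroTIPeR minus fibroControl, 0.00444% for fibroTIPeR minus fibroblast, 1.32% for fibroControl minus fibroblast, 0.560% for fibroTIPeR minus cardiomyocyte, 2.48% for fibroControl minus cardiomyocyte, 0.127% for astroTIPeR minus astroControl, 1.87% for astroTIPeR minus cardiomyocyte, 1.20% for astroControl minus cardiomyocyte and 0% for the difference of effects. At an unadjusted p under 0.05 in limma, members numbered 4 of 29 for cardiomyocyte minus fibroblast (9.23% of all probe sets), 1 for fibroTIPeR minus fibroControl (6.40%) and 0 for fibroTIPeR minus fibroblast (10.5%). They numbered 5 for fibroControl minus fibroblast (16.7%), 1 for fibroTIPeR minus cardiomyocyte (13.0%) and 5 for fibroControl minus cardiomyocyte (17.3%). In astrocytes they numbered 6 for astroTIPeR minus astroControl (9.81%), 4 for astroTIPeR minus cardiomyocyte (16.1%) and 8 for astroControl minus cardiomyocyte (15.9%), and the difference of effects gave 3 (7.99%). Groups did not overlap at 5 members for cardiomyocyte minus fibroblast (11.2% of all probe sets), 0 for fibroTIPeR minus fibroControl (3.15%), 2 for fibroTIPeR minus fibroblast (5.43%), 8 for fibroControl minus fibroblast (22.8%) and 1 for fibroTIPeR minus cardiomyocyte (3.64%). They did not overlap at 5 for fibroControl minus cardiomyocyte (16.7%), 7 for astroTIPeR minus astroControl (11.3%), 2 for astroTIPeR minus cardiomyocyte (6.75%) and 8 for astroControl minus cardiomyocyte (23.3%). A single probe set of the 29 is a share of 3.45%, which is a step in the count and no measure of chance. At the unadjusted threshold the members' share was above the background by more than that for astroTIPeR minus astroControl (20.7%), astroControl minus cardiomyocyte (27.6%) and cardiomyocyte minus fibroblast (13.8%). It was below by more than that for fibroTIPeR minus fibroblast and fibroTIPeR minus cardiomyocyte. Shares within that distance of the background were those of fibroControl minus fibroblast (17.2%), fibroControl minus cardiomyocyte (17.2%) and astroTIPeR minus cardiomyocyte (13.8%). The same held for the difference of effects (10.3%) and fibroTIPeR minus fibroControl. AstroTIPeR minus astroControl and astroControl minus cardiomyocyte share the 2 astroControl cells. In the former, probe sets under the unadjusted threshold ran both ways within Gata6 (2.13 and −2.32) and Mef2c (1.94 and −3.15). Those of Hand1 (2.09) and Hand2 (1.49) were higher in astroTIPeR cells.

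The 4 members of cardiomyocyte minus fibroblast were all higher in cardiomyocytes, beside 4.49% of all probe sets: the highest-mean ones of Gata6 and Nkx2-5, the third of Hand2 (1.5) and the third of Mef2c (1.49). All 5 of fibroControl minus cardiomyocyte were lower in fibroControl cells, beside 8.47% of all probe sets: the highest-mean ones of Mef2c (−3.09), Tbx5 (−2.60), Gata6 (−1.83) and Hand1 (−0.84), and the second of Gata4 (−1.96). With the 18S level as a covariate these differences were −2.46, −0.71, −0.96 and −0.55 for the highest-mean ones of Mef2c, Tbx5, Gata6 and Hand1, and −0.98 for the second of Gata4, with limma adjusted p of 0.795 or more. Here too 18S and group cannot be told apart. Without fibroControl 3 the Hand1 difference was −0.54, and without fibroControl 1 that of Mef2c was −2.11. In cardiomyocyte minus fibroblast, the third of Hand2 differed by 0.95 without cardiomyocyte 1, and the third of Mef2c by 2.29 without fibroblast 1 and 0.94 without fibroblast 2. In fibroControl minus cardiomyocyte, the highest-mean probe set of Mef2c came nearest to the threshold, with a limma adjusted p of 0.0573. Over the 29 probe sets the median difference was 0.28 for cardiomyocyte minus fibroblast, with 22 positive, beside a median of 0.08 over all probe sets. It was −0.12 for fibroTIPeR minus fibroControl, with 14 positive, beside 0.00 over all, and 0.40 for astroTIPeR minus astroControl, with 20 positive, beside 0.03 over all. For fibroTIPeR minus cardiomyocyte it was −0.49 beside −0.10 over all, and for astroTIPeR minus cardiomyocyte −0.14 beside −0.03 over all.

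A recipient cell was said to reach the cardiomyocyte level at a probe set where its value was at or above the mean of the 4 cardiomyocytes. At the highest-mean probe sets, none of the 16 transfected cells reached it for Gata6 or Tbx5. For Mef2c only fibroTIPeR 2 reached it, with 10.77 against a cardiomyocyte mean of 10.25. For Nkx2-5, 4 cells did: fibroTIPeR 2 (10.81), astroTIPeR 1 (10.86), astroTIPeR 2 (10.56) and the control cell fibroControl 1 (11.35). The other genes had cardiomyocyte means that did not stand apart from the recipients, and there more cells reached them: 4 for Tbx20, 7 for Mef2a, 9 for Srf, 10 for Hand1, 13 for Gata4 and 13 for Hand2. Against the looser mark of the lowest cardiomyocyte, 7 of 16 cells reached the Gata6 level, 2 that of Tbx5, 5 that of Mef2c and 8 that of Nkx2-5. The 2 cells for Tbx5 were fibroTIPeR 4 (9.51) and fibroTIPeR 5 (9.25), which also had the lowest 18S levels of their group (7.80 and 7.88). The part of 18S in this was not tested.

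These counts rested on the scaling. With each array centred on its median in place of quantile normalization, 8 of 16 cells reached the cardiomyocyte mean for Gata6, 3 for Tbx5, 4 for Mef2c and 9 for Nkx2-5. With the values as deposited the counts were 1 for Gata6, 0 for Tbx5, 1 for Mef2c and 4 for Nkx2-5. The median of all probe sets in astroTIPeR minus cardiomyocyte was −0.03 after quantile normalization, 0.14 after median centring and −1.0 as deposited. In the 8 fibroblast recipients, which shared the cardiomyocytes' set of arrays, the counts by median centring were 1 for Gata6, 1 for Tbx5, 1 for Mef2c and 4 for Nkx2-5.

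Cell by cell, the share of the 29 probe sets at or above the cardiomyocyte mean did not set the recipients of cardiomyocyte RNA apart. FibroTIPeR cells reached it at 13, 12, 6, 10 and 7 probe sets, against 16, 11 and 7 in fibroControl cells. AstroTIPeR cells reached it at 9 to 16 with a median of 11, against 13 and 10 in astroControl cells, and untransfected fibroblasts at 13, 9 and 4. The share over all probe sets was 42.3% to 49.4% in these 19 cells, and the members' share was below it in all of them but fibroControl 1 and astroTIPeR 3. At least 1 cell of the group reached the cardiomyocyte mean at 24 of 29 probe sets in fibroTIPeR (88.1% of all probe sets), 19 in fibroControl (72.1%), 25 in astroTIPeR (84.0%), 17 in astroControl (67.8%) and 17 in fibroblast cells (72.4%). Groups with more cells have more chances to hold such a cell.

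**Figure D4:**
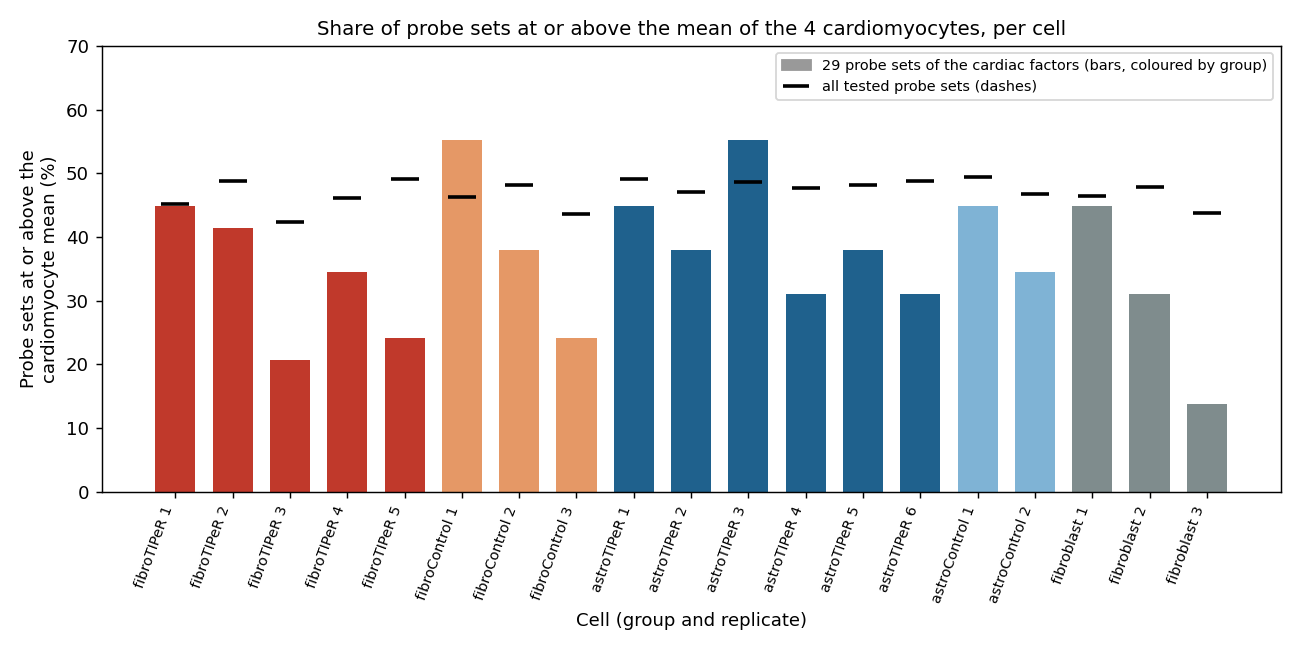
Share (%) of the 29 probe sets at or above the mean of the 4 cardiomyocytes in each of the other 19 cells, as bars coloured by group, with a dash for the share of all tested probe sets in the same cell. The highest bars, 16 of 29 probe sets, were fibroControl 1 and astroTIPeR 3, and the lowest, 4 of 29, was fibroblast 3.

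The lowest cardiomyocyte lay above the highest fibroblast at 4 of the 29 probe sets, beside 7.12% of all probe sets. They were the highest-mean ones of Gata6, with a gap of 0.47, and Nkx2-5, with a gap of 0.35, the second of Mef2c, with a gap of 0.02, and the fourth of Mef2a, with a gap of 0.01. At 1 further probe set, the fourth of Mef2c, every cardiomyocyte lay below every fibroblast, beside 4.06% of all probe sets. Among these, only Gata6 and Nkx2-5 had gaps over 0.1 between cardiomyocytes and untransfected fibroblasts. Against the astroControl cells, the highest-mean probe sets of Mef2c and Tbx5 also lay apart from cardiomyocytes with no overlap (−3.05 and −3.18, limma adjusted p = 0.120 and 0.0804). At the fourth Mef2a probe set all transfected groups held cells at or above the cardiomyocyte mean, 2 of 5 in fibroTIPeR, 2 of 3 in fibroControl, 4 of 6 in astroTIPeR and 2 of 2 in astroControl.

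Across cells, Gata6, Mef2c and Tbx5 tended to be high together. Over the 15 fibroblast and cardiomyocyte cells, Pearson's r was 0.67 for Gata6 with Mef2c, 0.69 for Mef2c with Tbx5 and 0.63 for Gata6 with Tbx5. Over the 8 astrocytes, on the other set of arrays, the same pairs gave 0.66, 0.66 and 0.75. Gata6 with Nkx2-5 gave 0.73 over the 15 cells and −0.06 over the 8 astrocytes. Mef2a ran against Gata6 in the 15 cells (r = −0.80, and −0.03 in astrocytes). The 45 pairs of highest-mean probe sets had a median r of 0.10, and the pairs named here were picked for their size, so they are given as a description. Cells of a pair share their library, and the cardiomyocytes at the top and low cells such as fibroTIPeR 1 weigh on these values. For Mef2c the lowest cells were fibroControl 1 (5.20) and fibroTIPeR 1 (6.49). Without these 2 cells, the farthest from the Mef2c median, Mef2c with Tbx5 gave 0.50.

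**Figure D5:**
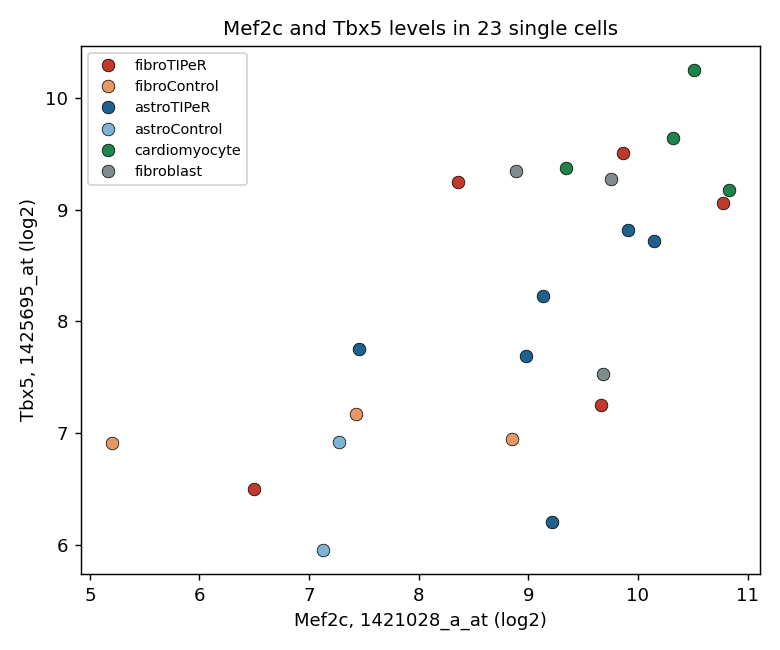
Level (log2) of the highest-mean Tbx5 probe set (vertical) against that of Mef2c (horizontal) in 23 cells, with 1 point per cell coloured by group. The 4 cardiomyocytes sit at the upper right, fibroTIPeR 1 (6.49 for both) and the astroControl cells at the lower left, and the remaining fibroTIPeR cells spread between them. The point furthest left is fibroControl 1 (Mef2c 5.20, Tbx5 6.91).

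By Pearson's r over the same 15 cells, the genes most like Gata6 among 18193 were Cdkn3 (0.97) and Mxi1 (0.95), those most like Nkx2-5 were Rpia (0.95) and Ermard (0.89), those most like Mef2c were Disp3 and Pnpla3 (0.94 each), and those most like Tbx5 were Crkl and Mroh3 (0.96 each). A highest value among so many genes is high in part because it was picked. Over the 8 astrocytes the likeness was 0.44 for Gata6 with Cdkn3, 0.54 for Nkx2-5 with Rpia, 0.03 for Mef2c with Disp3, 0.91 for Mef2c with Pnpla3, 0.51 for Tbx5 with Crkl and 0.90 for Tbx5 with Mroh3.

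Other regulators of heart development, 42 measured of 46 listed, gave few calls too. Of these 0 passed in cardiomyocyte minus fibroblast, where 3 had an unadjusted p under 0.05 in limma, beside 9.64% of all 18193 genes. In fibroTIPeR minus fibroControl 0 passed and 5 had an unadjusted p under 0.05 (6.43% of all genes), and in astroTIPeR minus astroControl 0 passed and 1 had one (9.31%). Over all comparisons the only call was Prox1, a homeodomain factor that maintains sarcomere structure, which averaged 5.77 in astroTIPeR cells and 8.99 in cardiomyocytes (−3.22 ± 0.78, limma adjusted p = 0.0263). The heart muscle genes known as targets of these factors behaved otherwise. Of 27 measured, 7 rose in cardiomyocytes over fibroblasts (0.0715% of all genes) and 0 fell (0.104%), with a list median of 2.02 beside 0.09 over all genes. Tnni3, cardiac troponin I, averaged 11.96 in cardiomyocytes and 4.76 in fibroblasts (7.20 ± 0.85, limma adjusted p = 4.1e-05). Myl2, the ventricular regulatory light chain, was higher in cardiomyocytes by 5.67, Myoz2, a Z-disc protein, by 5.76 and Atp2a2, the calcium pump of the sarcoplasmic reticulum, by 5.52.

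None of the 27 target genes passed in fibroTIPeR minus fibroControl or in astroTIPeR minus astroControl, where 1 gene each had an unadjusted p under 0.05 in limma (6.43% and 9.31% of all genes). In fibroblasts it was Atp2a2, higher by 4.17 ± 1.08 (limma adjusted p = 0.329). Its mean was 8.71 in fibroTIPeR, 4.54 in fibroControl, 7.04 in fibroblast and 12.55 in cardiomyocyte cells. In astrocytes it was Des, with a difference of −3.47 ± 1.06 (limma adjusted p = 0.195). Against cardiomyocytes, 9 of the 27 target genes fell in fibroTIPeR cells (0.137% of all genes), 11 in fibroControl (1.02%), 11 in astroTIPeR (0.638%) and 6 in astroControl (0.495%), and 0 rose. These comparisons share the 4 cardiomyocytes. Tnni3 was lower than in cardiomyocytes by −6.91 in fibroTIPeR, −7.69 in fibroControl, −7.50 in astroTIPeR and −8.52 in astroControl cells. Among 19 measured targets of Srf, the cytoplasmic actins Actb and Actg1 were the 2 that rose against cardiomyocytes, by 5.69 and 4.11 in fibroTIPeR cells (0.473% of all genes rose) and by 5.21 and 3.88 in fibroControl cells (1.89%), while Srf itself differed from cardiomyocytes by 0.39 in fibroTIPeR and 0.23 in fibroControl cells.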

How the data were processed

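The authors deposited 1 table of log2 values for 45101 probe sets in 23 single-cell arrays; the scale was read from the values, and how they were summarized and normalized is unstated in the labels used here. Per the labels' protocols, poly-A RNA was transfected with a lipid reagent, single cells were picked by pipette, and their RNA was amplified. The 64 control probe sets were left out, and all columns were quantile normalized together. Differences were fitted with limma 3.58.1 (R 4.3.3) on all 45037 probe sets, with a mean for each of 6 groups, eBayes with a trend, and Benjamini-Hochberg adjustment over all probe sets at 0.05. Probe sets took their genes from the platform annotation, 34945 with 1 symbol; the highest-mean probe set stands for a gene, and the other members' probe sets were described too. Genes of the other lists were named as up to 4 past the threshold with the largest change. The members and lists were chosen with earlier results of these data known. Replicate numbers were not used to pair cells in the main fit. The correlations of same-numbered cells' deviations ran from −0.30 to 0.24. Each sets 1 cell against 1 cell, so they cannot settle whether the numbers stand for a shared culture. No pair of arrays held identical values. The fit was tested on simulated data. Alternatives were other scalings, filters, fits and left-out cells.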

Additional observations from a re-analysis of the deposited data

Results flagged for a closer look

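Among 87 groups of 4 to 6 cells tested with Dixon's criterion, 3 held a cell far from the rest, and chance gives about 1 in 20. Mef2a, at the sixth of its probe sets by mean over all cells, read 4.53 in astroTIPeR 1, while the other astroTIPeR cells lay between 2.28 and 2.99. Mef2c at the fourth by mean read 6.73 in fibroTIPeR 4, while the other fibroTIPeR cells lay between 3.37 and 4.12. Mef2c at the fifth by mean read 2.63 in astroTIPeR 1, while the other astroTIPeR cells lay between 3.73 and 4.37.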

How the results depend on the processing

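The 0 calls of the 10 contrasts stayed at 0 in 346 of 370 alternatives. For astroTIPeR minus cardiomyocyte and astroControl minus cardiomyocyte, the counts were 8 and 6 with values as deposited, 3 and 2 with median centring, and 6 and 7 with quantile normalization within each array set, and the deposited medians of the array sets differ. Array weights gave 2 for cardiomyocyte minus fibroblast (the third of Mef2c and the highest-mean of Gata6), 2 for fibroControl minus cardiomyocyte and 1 for astroTIPeR minus cardiomyocyte. Fitting the compared groups alone gave 1 for fibroControl minus cardiomyocyte and 1 for astroTIPeR minus cardiomyocyte. Probe sets above the median level gave 1 for fibroControl minus cardiomyocyte, and eBayes without a trend gave 1 for astroControl minus cardiomyocyte. Without fibroTIPeR replicates 1 to 3, fibroControl minus cardiomyocyte gave 2 and astroControl minus cardiomyocyte 1. Leaving out 1 cell gave 0 to 2 for fibroControl minus cardiomyocyte (2 without fibroTIPeR 1), and 0 to 1 for astroControl minus cardiomyocyte, astroTIPeR minus cardiomyocyte, astroTIPeR minus astroControl and the difference of effects. With the replicate block all counts were 0; the cause of these moves was not tested. Probe sets at which a cell reached the cardiomyocyte level numbered 15 for astroTIPeR and 7 for astroControl with values as deposited, and 7 for astroControl with quantile normalization within each array set. Of 1371 alternatives to single tests of members, 1329 kept direction and side of the threshold, 41 passed it and 1 reversed: the fourth Mef2a probe set in fibroControl minus fibroblast, −0.0568 with the 18S level as a covariate. Calls are limited by groups of 2 to 6 cells, and no detection calls were used, so a low level cannot be told from absence.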
